A study of Mus musculus with 15 samples.

Results

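Chemokines of mouse embryonic fibroblasts were followed here across a deletion of Hdac1 and a knockdown of Hdac2, the genes of a pair of closely related class I histone deacetylases. The 10 genes are Cxcl1, Cxcl3, Cxcl5, Cxcl10, Cxcl12, Cxcl14, Cxcl16, Ccl2, Ccl5 and Ccl7, of 18193 gene symbols with a probe set of their own on the array. They were chosen by symbol from probe sets annotated to 1 gene only, 16 probe sets in all, and each gene is represented by whichever of its probe sets was brightest on average over the 15 arrays. All 10 passed the filter on low values, as did 13382 genes in all. For Ccl5 this rested on the KO/Kd and KO arrays, since no array of the other 3 groups was above the cut-off used. Cxcl3 had already stood out in earlier results of these data as the highest gene of the knockdown, and Cxcl5 as among the lowest of the deletion. Changes of Cxcl3 that rest on the Kd arrays and of Cxcl5 that rest on the KO arrays are therefore given as descriptions with no test. Their other changes against control share the control arrays with these, so those tests give no separate support.

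RNA of primary male fibroblasts was hybridised to Affymetrix Mouse 430v2 arrays, 15 arrays in 5 groups of 3. KO/Kd cells (HDAC1 fl/fl, siRNA against HDAC2, Tamoxifen) carried both perturbations. KO cells (HDAC1 fl/fl, siRNA scrambled, Tamoxifen) had the deletion, and Kd cells (HDAC1 fl/fl, siRNA against HDAC2, EtOH) the knockdown. Cells with intact alleles (HDAC1 +/+, Tamoxifen; called +/+ tamoxifen cells) formed the fourth group, and HDAC1 fl/fl cells with siRNA scrambled and EtOH were the control. Every fl/fl group, the control included, carried a retrovirus for Cre-ERT2, a Cre recombinase switched on by tamoxifen, and a second retrovirus for the small hairpin micro-RNA that the sample names call siRNA. Tamoxifen was used at 200 nM. The sources used here do not say whether the +/+ tamoxifen cells carried these viruses, so that their difference from the control mixes tamoxifen, the floxed allele and possibly the viruses. In KO against control and in KO/Kd against Kd, the deletion and tamoxifen cannot be told apart. The labels do not state that replicate arrays stem from independent cultures. All p-values therefore measure only the spread between these samples, and part of that spread may be technical. In such bulk RNA, fewer cells of a kind and less RNA per cell cannot be told apart.

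Chemokines are small secreted proteins that draw leukocytes along a gradient by binding G protein-coupled receptors, and they are sorted into CXC and CC families by the spacing of their first cysteines. Cxcl1, Cxcl3 and Cxcl5 attract neutrophils through Cxcr2, Ccl2 and Ccl7 attract monocytes through Ccr2, Ccl5 attracts T cells and monocytes, and Cxcl10 attracts activated T cells through Cxcr3. Cxcl12, made constitutively by stromal cells, holds haematopoietic cells through Cxcr4 and is also bound by the scavenging receptor Ackr3, while Cxcl16 is made as a membrane-bound ligand of Cxcr6. In fibroblasts the inflammatory members are classical targets of NF-kappaB, and Cxcl10 is in addition a classical interferon target. Histone deacetylases 1 and 2 remove acetyl groups from histones as parts of co-repressor complexes.

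The promoters of the chromosome 5 genes Cxcl1, Cxcl3 and Cxcl10 are printed because the first pair are near neighbours with different responses to the knockdown and Cxcl10 was highest in KO cells. They are RefSeq sequences in GRCm38.p6, from 250 bases before to 50 bases after the start of the gene, written 5′ to 3′ on the strand of the gene. Cxcl1 lies at chr5:90890995-90891294 (+), Cxcl3 at chr5:90785851-90786150 (+) and Cxcl10 at chr5:92348840-92349139 (-). Capitals mark matches to the kappaB-type letters GGGNNNTTCC on either strand; overlapping matches run together.
Cxcl1: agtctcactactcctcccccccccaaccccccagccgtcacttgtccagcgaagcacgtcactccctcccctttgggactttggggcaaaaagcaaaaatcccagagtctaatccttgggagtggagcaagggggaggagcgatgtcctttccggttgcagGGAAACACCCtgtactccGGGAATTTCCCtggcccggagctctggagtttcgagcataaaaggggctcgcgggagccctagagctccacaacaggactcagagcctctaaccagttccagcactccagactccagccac
Cxcl3: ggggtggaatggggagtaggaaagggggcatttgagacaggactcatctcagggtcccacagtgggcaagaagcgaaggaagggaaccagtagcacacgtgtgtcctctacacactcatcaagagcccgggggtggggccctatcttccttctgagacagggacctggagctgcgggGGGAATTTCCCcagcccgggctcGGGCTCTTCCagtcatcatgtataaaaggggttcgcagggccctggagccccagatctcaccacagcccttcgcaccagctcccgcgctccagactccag
Cxcl10: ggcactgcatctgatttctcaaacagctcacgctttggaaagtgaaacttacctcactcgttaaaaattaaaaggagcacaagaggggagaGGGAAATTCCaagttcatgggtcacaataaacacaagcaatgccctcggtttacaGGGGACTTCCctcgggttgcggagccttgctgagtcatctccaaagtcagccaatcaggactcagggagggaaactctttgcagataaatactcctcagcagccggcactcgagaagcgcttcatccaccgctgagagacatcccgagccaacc

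Cxcl1 and Cxcl3 share the match GGGAATTTCC, which starts 71 bases before the gene in Cxcl1 and 73 bases before it in Cxcl3 and overlaps a match on the other strand. Cxcl1 held a further match on the other strand (GGAAACACCC), and Cxcl3 a further one at 50 bases (GGGCTCTTCC) and the letters TATAAA at 30 bases. Cxcl10 held GGGAAATTCC at 159 bases and GGGGACTTCC at 104 bases, along with the interferon-response-type letters GAAANNGAAA as GAAAGTGAAA at 213 bases and the AP-1-type letters TGANTCA as TGAGTCA at 74 bases. Of the other 2 promoters in the table, Cxcl14 on chromosome 13 held GAAACAGAAA and no kappaB-type match, and Cxcl12 on chromosome 6 held none of the 4 motifs. For comparison, GGGNNNTTCC was found in 5.56% of 32851 promoters of the same length, TATAAA in 13.6%, GAAANNGAAA in 3.44% and TGANTCA in 7.81%, both strands searched. A match describes letters only. Cxcl5, Cxcl16, Ccl2, Ccl5 and Ccl7 are named without a sequence. Among protein-coding genes, Cxcl3 and Cxcl1 are separated by Cxcl15 alone on chromosome 5, and Ccl2 and Ccl7 are adjacent on chromosome 11.

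Intensities below are linear array units as deposited. A log2 change is the difference of group means of log2(intensity + 16), a scale that understates the changes of dim genes. It is followed by its standard error and by the p-value of limma's moderated test, adjusted by Benjamini and Hochberg over all 13382 genes, and "rose" or "fell" is used at an adjusted p under 0.05. Intensities of different probe sets are not comparable with each other.

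Of the neutrophil-attracting genes, Cxcl1 and Cxcl5 were below control in both groups with deleted Hdac1, while Cxcl3 was low in all groups but Kd. In Kd cells Cxcl3 stood far above every other group and Cxcl1 did not pass the test against control. Cxcl1 read 520, 874 and 514 on the KO/Kd arrays, 931, 950 and 1027 in KO cells, 3986, 3654 and 3658 in Kd cells, 375, 223 and 155 in +/+ tamoxifen cells, and 3173, 2554 and 2587 in control cells. No 2 of these groups overlapped, and the +/+ tamoxifen cells were the lowest. Cxcl1 fell in KO/Kd cells (-2.13 ± 0.23, adjusted p = 4.37e-07), in KO cells (-1.49 ± 0.23, adjusted p = 0.000215) and in +/+ tamoxifen cells (-3.46 ± 0.23, adjusted p = 1.71e-08), each against control. Its change in Kd cells was 0.45 ± 0.23 and did not pass limma's test (adjusted p = 0.266). In KO/Kd cells against Kd cells it fell by 2.58 ± 0.23 on the log2 scale (adjusted p = 5.26e-08). The KO/Kd level was also below the KO level (-0.64 ± 0.23, adjusted p = 0.0254), a call that was lost without KO replicate 1 or 3 or without KO/Kd replicate 1 or 3 (adjusted p 0.0521 to 0.0997). It passed in 10 of 17 alternatives, the other losses being under trended and robust eBayes (-0.64, adjusted p = 0.0689), with the mean of the probe sets (-0.35, adjusted p = 0.0614) and without _x_at and _s_at probe sets (-0.41, adjusted p = 0.0567). The second bright probe set, 1419209_at, gave -0.41 (adjusted p = 0.0632). Both groups lay above the +/+ tamoxifen cells, KO/Kd by 1.33 ± 0.23 (adjusted p = 8.97e-05) and KO by 1.97 ± 0.23 (adjusted p = 9.03e-06).

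Cxcl3 read 41.8, 48.0 and 40.9 in KO/Kd cells, 22.0, 18.9 and 23.5 in KO cells, 528, 433 and 540 in Kd cells, 29.0, 30.2 and 19.4 in +/+ tamoxifen cells, and 22.4, 21.2 and 21.3 in control cells. The Kd arrays stood clear of all others, the KO/Kd arrays lay between them and the rest, and the other 3 groups overlapped. The mean was 500 ± 58.7 in Kd cells and 21.6 ± 0.66 in control cells (SD, n = 3 each), a log2 change of 3.77 ± 0.10 that is given as a description, and 4.46 with a pseudocount of 1 in place of 16. In KO/Kd cells against Kd cells the log2 change was -3.11 ± 0.10, also a description. Cxcl3 in KO/Kd cells was above control by 0.66 ± 0.10 (adjusted p = 2.71e-05), above KO by 0.67 ± 0.10 (adjusted p = 3.16e-05) and above +/+ tamoxifen cells by 0.51 ± 0.10 (adjusted p = 0.000401). The value against control was 0.44 after quantile normalization and 0.39 with each array centred on its median. That comparison shares the control arrays with the described Kd change, so its test gives no separate support. KO cells against control (-0.01 ± 0.10, adjusted p = 0.969) and +/+ tamoxifen cells against control (0.15 ± 0.10, adjusted p = 0.29) did not pass limma's test. Of the 3 arrays, 2 in KO cells and 2 in +/+ tamoxifen cells were above the 40th percentile of their array.

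Cxcl5 was lowest in KO and KO/Kd cells and highest in control cells. Its intensities were 36.7, 55.3 and 35.9 in KO/Kd cells, 40.7, 32.1 and 44.6 in KO cells, 107, 88.0 and 83.6 in Kd cells, 104, 76.7 and 68.5 in +/+ tamoxifen cells, and 261, 239 and 185 in control cells. All control arrays were above all others, KO/Kd overlapped KO, and Kd overlapped +/+ tamoxifen. The KO mean of 39.1 ± 6.41 set against the control mean of 228 ± 39.0 (SD, n = 3 each) is a log2 change of -2.14 ± 0.15, given as a description. Cxcl5 fell in KO/Kd cells (-2.06 ± 0.15, adjusted p = 5.64e-09), in Kd cells (-1.16 ± 0.15, adjusted p = 9.95e-05) and in +/+ tamoxifen cells (-1.30 ± 0.15, adjusted p = 1.21e-05) against control. These falls share the control arrays with the described KO change, so their tests give no separate support. The KO/Kd value minus the KO value was 0.08 ± 0.15, and Kd and +/+ tamoxifen cells did not differ by limma's test (adjusted p = 0.575). Against +/+ tamoxifen cells Cxcl5 fell by 0.76 in KO/Kd cells (adjusted p = 0.000431), the value of -0.84 in KO cells being a description, and against Kd it fell by 0.90 in KO/Kd cells (adjusted p = 8.31e-05).

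**Figure D1:**
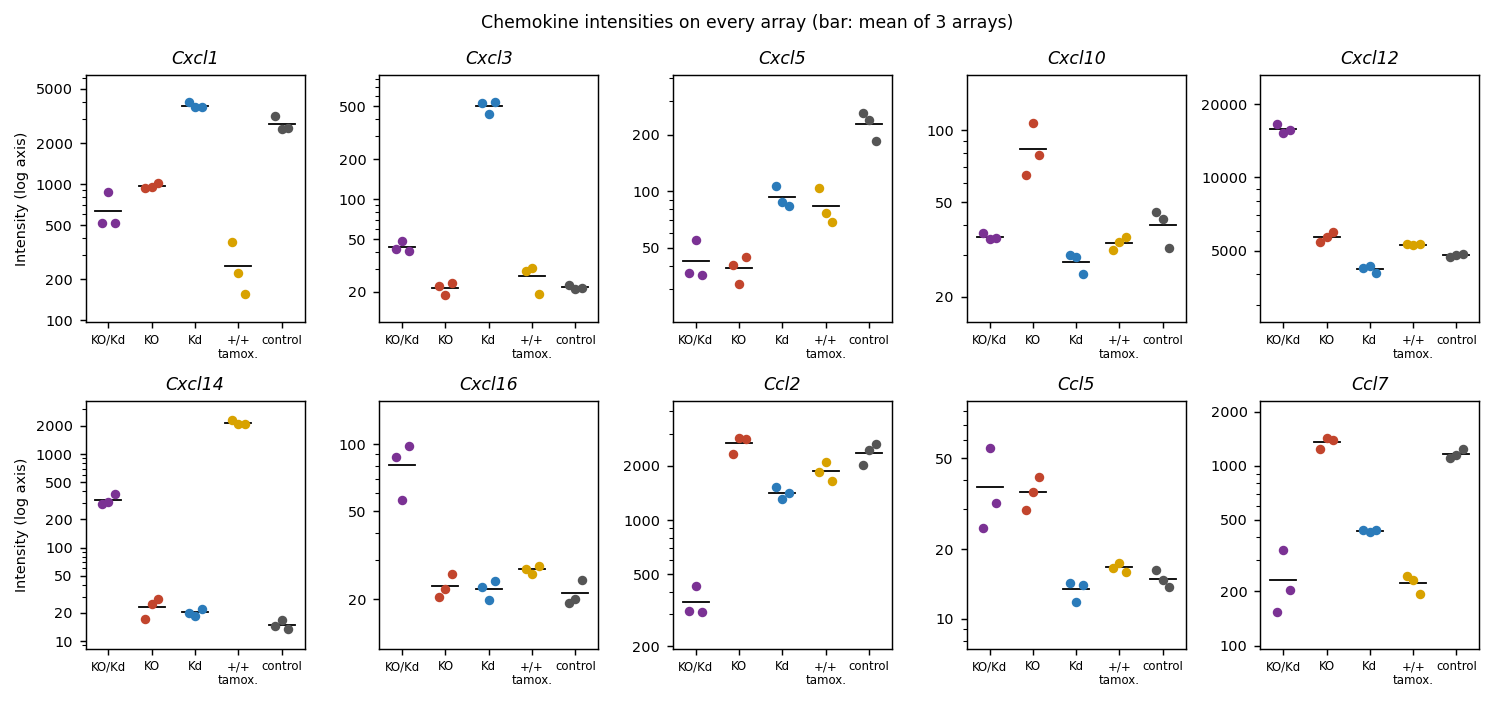
Intensity of the 10 chemokine genes on each array (points; log axes that differ between panels), with KO/Kd, KO, Kd, +/+ tamoxifen and control cells from left to right and a bar at the mean of 3 arrays. Cxcl3 stands out in Kd cells (500), Cxcl14 in +/+ tamoxifen cells (2159), Cxcl12 in KO/Kd cells (15790) and Cxcl10 in KO cells (83.6), while Ccl2 is lowest in KO/Kd cells (351).

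The monocyte-attracting neighbours Ccl2 and Ccl7 fell against control in Kd cells and were lowest or among the lowest in KO/Kd cells. In KO cells neither passed the test against control, and both were above +/+ tamoxifen cells. Ccl2 read 313, 429 and 311 in KO/Kd cells, 2330, 2856 and 2809 in KO cells, 1524, 1310 and 1409 in Kd cells, 1848, 2086 and 1639 in +/+ tamoxifen cells, and 2010, 2427 and 2627 in control cells. The KO/Kd arrays lay below all others and the Kd arrays below the remaining 3 groups, of which KO overlapped control and +/+ tamoxifen overlapped control. Ccl2 fell in KO/Kd cells by 2.70 ± 0.13 on the log2 scale (adjusted p = 3.25e-11) and in Kd cells by 0.72 ± 0.13 (adjusted p = 0.00162) against control. For KO cells the change was 0.18 ± 0.13 (adjusted p = 0.355) and for +/+ tamoxifen cells -0.34 ± 0.13 (adjusted p = 0.0671), neither past the threshold. KO/Kd cells were also below Kd cells (-1.98 ± 0.13, adjusted p = 1.62e-09), below KO cells (-2.88 ± 0.13, adjusted p = 2.57e-11) and below +/+ tamoxifen cells (-2.36 ± 0.13, adjusted p = 1.91e-10). KO cells were above +/+ tamoxifen cells by 0.52 ± 0.13 (adjusted p = 0.00859).

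Ccl7 read 154, 340 and 203 in KO/Kd cells, 1236, 1436 and 1399 in KO cells, 441, 427 and 440 in Kd cells, 243, 232 and 193 in +/+ tamoxifen cells, and 1103, 1151 and 1243 in control cells. KO and control arrays formed the high end and overlapped, Kd arrays came next, and the KO/Kd and +/+ tamoxifen arrays overlapped at the low end. Unlike Ccl2, Ccl7 was low in +/+ tamoxifen cells too. It fell against control in KO/Kd cells (-2.32 ± 0.18, adjusted p = 7.69e-09), in Kd cells (-1.38 ± 0.18, adjusted p = 7e-05) and in +/+ tamoxifen cells (-2.31 ± 0.18, adjusted p = 1.04e-07). KO cells changed by 0.21 ± 0.18 (adjusted p = 0.423). KO/Kd cells were below Kd cells (-0.93 ± 0.18, adjusted p = 0.000237) and KO cells (-2.53 ± 0.18, adjusted p = 4.45e-09) but not apart from +/+ tamoxifen cells by limma's test (-0.01 ± 0.18, adjusted p = 0.977). KO/Kd replicate 2 was the highest array of its group for Ccl7, and without it that last value was -0.30 (adjusted p = 0.0286). The same array was the highest of its group for Cxcl1, Cxcl3, Cxcl5, Ccl2 and Ccl5. KO cells were above +/+ tamoxifen cells by 2.53 ± 0.18 (adjusted p = 2.68e-08).

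Cxcl12, the stromal chemokine, and Cxcl16 were highest in KO/Kd cells, and Cxcl14, a chemokine whose receptor is less well settled, was highest in +/+ tamoxifen cells and next in KO/Kd cells. Cxcl12 read 16560, 15190 and 15630 in KO/Kd cells, 5429, 5673 and 5977 in KO cells, 4241, 4312 and 4066 in Kd cells, 5326, 5275 and 5306 in +/+ tamoxifen cells, and 4715, 4817 and 4835 in control cells. The KO/Kd arrays were far above the rest. Cxcl12 rose in KO/Kd cells by 1.72 ± 0.06 against control (adjusted p = 6.38e-13), by 1.90 ± 0.06 against Kd (adjusted p = 2.7e-13), by 1.47 ± 0.06 against KO (adjusted p = 7.01e-12) and by 1.57 ± 0.06 against +/+ tamoxifen cells (adjusted p = 2.2e-12). The second bright probe set, 1417574_at, averaged 9876 ± 177 in KO/Kd cells, 4178 ± 286 in KO cells, 5329 ± 243 in Kd cells, 6765 ± 487 in +/+ tamoxifen cells and 5267 ± 421 in control cells (SD, n = 3 each). It gave a smaller rise of 0.91 against control (adjusted p = 4.79e-08), of 0.89 against Kd (adjusted p = 7.43e-08) and of 0.55 against +/+ tamoxifen cells (adjusted p = 1.73e-05), and the dim 1439084_at gave 0.39 against control (adjusted p = 0.00718). The mean of the probe sets was 1.00 against control.

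Cxcl12 in KO cells against control had no settled direction. The brighter probe set passed the threshold at 0.25 ± 0.06 (adjusted p = 0.007), 1417574_at passed it in the opposite direction at -0.33 (adjusted p = 0.00736), and their mean gave -0.05 (adjusted p = 0.607). In Kd cells (-0.19 ± 0.06, adjusted p = 0.0603) and +/+ tamoxifen cells (0.15 ± 0.06, adjusted p = 0.0828) Cxcl12 did not pass limma's test against control on the brighter probe set. On 1417574_at the mean was 5329 in Kd cells and 6765 in +/+ tamoxifen cells, beside 5267 in control cells.

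Cxcl14 had the widest range of group means of the 10 genes, 6.14 on the log2 scale. It read 293, 305 and 378 in KO/Kd cells, 17.4, 25.03 and 27.9 in KO cells, 19.8, 18.7 and 22.2 in Kd cells, 2314, 2084 and 2077 in +/+ tamoxifen cells, and 14.4, 16.7 and 13.3 in control cells. The +/+ tamoxifen arrays and then the KO/Kd arrays stood apart from the rest, and control arrays were all under the 40th percentile of their array. Against control Cxcl14 rose by 6.14 ± 0.10 in +/+ tamoxifen cells (adjusted p = 5.74e-16) and by 3.46 ± 0.10 in KO/Kd cells (adjusted p = 1.09e-13). With a pseudocount of 1 the value was 7.10 in +/+ tamoxifen cells and 4.36 in KO/Kd cells. With the other probe set, 1418456_a_at, it was 4.36 in +/+ tamoxifen cells and 1.46 in KO/Kd cells. The change of 0.35 ± 0.10 in KO cells (adjusted p = 0.0236) passed the threshold in 11 of 17 alternatives and was lost without KO replicate 2 or 3 or without control replicate 1 or 3 (adjusted p 0.0652 to 0.109). Over all alternatives the smallest value was 0.20 and the largest adjusted p by limma was 0.2. The other probe set averaged 28.5 ± 6.37 in KO cells and 26.7 ± 0.85 in control cells (SD, n = 3 each). Kd cells did not pass (0.23 ± 0.10, adjusted p = 0.191). Among tamoxifen-treated cells, Cxcl14 was below its +/+ level in KO/Kd cells (-2.68 ± 0.10, adjusted p = 2.67e-12) and in KO cells (-5.79 ± 0.10, adjusted p = 1.43e-15), so that its rise in KO/Kd cells held against the floxed groups and not against the +/+ group. KO/Kd cells were above Kd cells by 3.23 ± 0.10 (adjusted p = 3.52e-13) and above KO cells by 3.11 ± 0.10 (adjusted p = 5.65e-13).

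Cxcl16 read 87.4, 56.3 and 97.8 in KO/Kd cells, 20.6, 22.4 and 26.1 in KO cells, 22.9, 19.8 and 24.2 in Kd cells, 27.4, 26.1 and 28.4 in +/+ tamoxifen cells, and 19.2, 20.2 and 24.5 in control cells. Every KO/Kd array was above every other array, and the other 4 groups lay close together. Cxcl16 rose in KO/Kd cells by 1.35 ± 0.12 against control (adjusted p = 6.93e-08), 1.31 ± 0.12 against Kd (adjusted p = 1.16e-07), 1.28 ± 0.12 against KO (adjusted p = 1.89e-07) and 1.13 ± 0.12 against +/+ tamoxifen cells (adjusted p = 6.62e-07). The nearly equally bright 1418718_at, which averaged 58.0 ± 0.56 in KO/Kd cells and 26.3 ± 2.06 in control cells (SD, n = 3 each), gave 0.81 against control (adjusted p = 3.48e-08) and 0.65 against KO (adjusted p = 7.04e-07). In KO cells (0.07, adjusted p = 0.756), Kd cells (0.04, adjusted p = 0.905) and +/+ tamoxifen cells (0.22, adjusted p = 0.215) Cxcl16 did not pass limma's test against control.

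**Figure D2:**
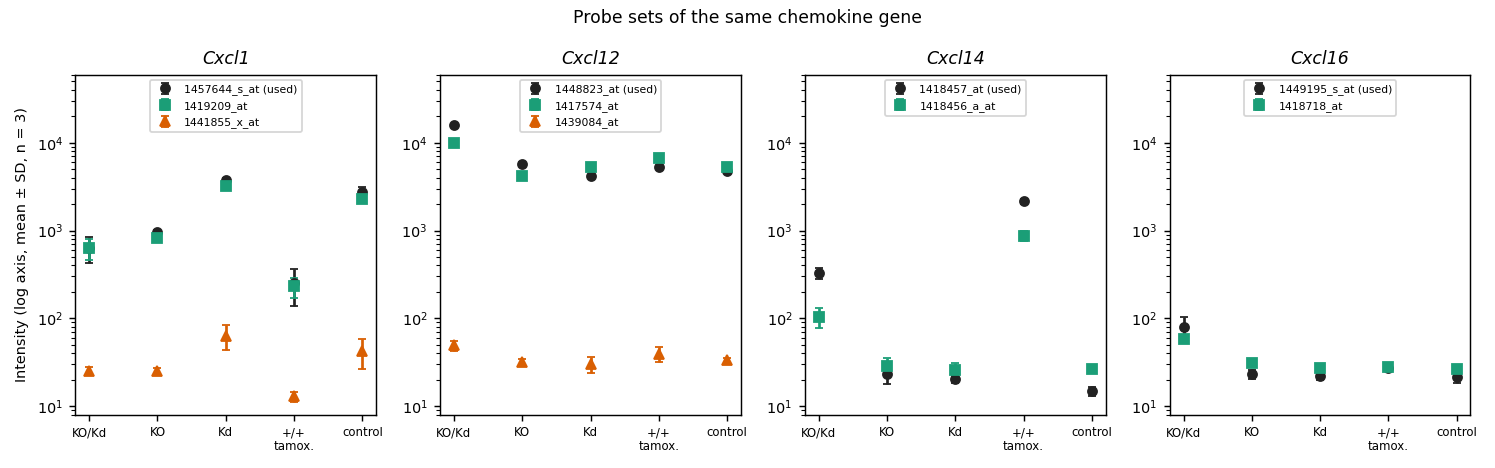
Mean intensity ± SD (n = 3; log axis) of each probe set of the 4 chemokine genes with several, in KO/Kd, KO, Kd, +/+ tamoxifen and control cells from left to right; black circles are the probe sets used. The bright probe sets of Cxcl1 run together, those of Cxcl12 and Cxcl16 share the highest group but differ in the size of the step, and 1418456_a_at shows a smaller range for Cxcl14.

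The interferon- and inflammation-linked pair Cxcl10 and Ccl5 stayed between 11.8 and 107 on every array. Cxcl10 was highest in KO cells, and Ccl5 was higher in both groups with deleted Hdac1. Cxcl10 read 36.9, 35.0 and 35.4 in KO/Kd cells, 64.6, 107 and 78.8 in KO cells, 29.9, 29.5 and 25.04 in Kd cells, 31.4, 34.0 and 35.7 in +/+ tamoxifen cells, and 45.6, 42.6 and 32.0 in control cells. The KO arrays were above all others, and the control arrays overlapped those of KO/Kd and +/+ tamoxifen cells. Cxcl10 rose in KO cells by 0.81 ± 0.12 against control (adjusted p = 0.000184) and by 0.98 ± 0.12 against +/+ tamoxifen cells (adjusted p = 1.89e-05), and it was lower in KO/Kd than in KO cells (-0.92 ± 0.12, adjusted p = 6.97e-06). KO/Kd cells (-0.11, adjusted p = 0.461), Kd cells (-0.34, adjusted p = 0.097) and +/+ tamoxifen cells (-0.17, adjusted p = 0.35) did not pass limma's test against control. After quantile normalization the KO/Kd value was -0.36 and, like the Kd value of -0.40, past the threshold.

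Ccl5 read 24.7, 55.5 and 31.7 in KO/Kd cells, 29.7, 35.7 and 41.3 in KO cells, 14.3, 11.8 and 14.1 in Kd cells, 16.6, 17.5 and 15.98 in +/+ tamoxifen cells, and 16.3, 14.7 and 13.7 in control cells. Every array with deleted Hdac1 was above every array with intact Hdac1, and the arrays of the last 3 groups were under the 40th percentile of their array. Because the probe set entered the test through the KO/Kd and KO arrays alone, it had to differ, and its calls support nothing further. Given as descriptions with no test, Ccl5 was above control by 0.75 ± 0.14 in KO/Kd cells and by 0.73 ± 0.14 in KO cells. These values were each 1.19 with a pseudocount of 1. Against +/+ tamoxifen cells the differences were 0.66 ± 0.14 in KO/Kd cells (0.43 without KO/Kd replicate 2) and 0.65 ± 0.14 in KO cells. KO/Kd cells were above Kd cells by 0.82 ± 0.14, likewise a description, and not apart from KO cells by limma's test (0.01 ± 0.14, adjusted p = 0.952). The summed level of 10 leukocyte markers ran from 426 to 610 in KO/Kd cells, from 478 to 693 in KO cells and from 430 to 454 in control cells, and its part in the Ccl5 and Cxcl10 values was not tested. Of these 10 markers, Cd14, Csf1r and Cd68 were above the 40th percentile on all 15 arrays and Lyz2 on 13, while the pan-leukocyte marker Ptprc, Cd3e and Itgam were above it on 0. Csf1r rose in KO cells against control (0.85, adjusted p = 0.00346) and Cd68 rose in KO/Kd cells (0.62, adjusted p = 0.00472), by limma. Kit, above the 40th percentile on 3 arrays, had a log2 difference of 0.20 in KO/Kd cells.

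Counted over the 10 genes, 9 passed the threshold in KO/Kd cells against control, 5 higher (Cxcl3, Cxcl12, Cxcl14, Cxcl16 and Ccl5) and 4 lower (Cxcl1, Cxcl5, Ccl2 and Ccl7), beside 65.5% of all genes tested (46.2% higher, 19.3% lower). In KO against control 6 passed, 4 higher (Cxcl10, Cxcl12, Cxcl14 and Ccl5) and 2 lower (Cxcl1 and Cxcl5), beside 24.2% of all genes (19.6% higher, 4.66% lower). With each array centred on its median that split was 2 higher and 2 lower, Cxcl12 and Cxcl14 no longer passing. In Kd against control 4 passed, Cxcl3 higher and Cxcl5, Ccl2 and Ccl7 lower, beside 10.6% (7.55% higher, 3.04% lower). In +/+ tamoxifen cells against control 4 passed, Cxcl14 higher and Cxcl1, Cxcl5 and Ccl7 lower, beside 28.5% (21.5% higher, 6.93% lower). These counts and those below include the described changes of Cxcl3 and Cxcl5 and the calls of Ccl5, and since the genes were chosen with results known, no excess over these shares is read from them. The median log2 change of the 10 genes was 0.28 in KO/Kd cells, beside 0.16 over all genes. For KO cells it was 0.20 beside 0.08, for Kd cells -0.13 beside 0.04, and for +/+ tamoxifen cells -0.04 beside 0.08. All 4 comparisons share the control arrays.

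Within the floxed cells, 9 of 10 genes passed in KO/Kd against Kd, beside 63.4% of all genes (42.9% higher, 20.5% lower), with Cxcl12, Cxcl14, Cxcl16 and Ccl5 higher and Cxcl1, Cxcl3, Cxcl5, Ccl2 and Ccl7 lower. Cxcl10 did not pass there (0.23 ± 0.12, adjusted p = 0.112). Against KO, 8 passed in KO/Kd cells, beside 56.8% (36.2% higher, 20.6% lower), with Cxcl3, Cxcl12, Cxcl14 and Cxcl16 higher and Cxcl1, Cxcl10, Ccl2 and Ccl7 lower. Among tamoxifen-treated cells, 8 passed in KO/Kd against +/+ cells, beside 61.8% (38.3% higher, 23.5% lower), and 7 in KO against +/+ cells, beside 24.1% (12.8% higher, 11.3% lower). With tamoxifen in both groups, Cxcl1, Cxcl10, Ccl2, Ccl5 and Ccl7 were higher and Cxcl5 and Cxcl14 lower in KO than in +/+ cells. KO against control and KO against +/+ tamoxifen cells gave opposite signs for Cxcl1 (-1.49 and 1.97). For Cxcl14 the values were 0.35 and -5.79, but the first was small, near the floor and lost its call in several alternatives. Those 2 comparisons share the KO arrays.

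**Figure D3:**
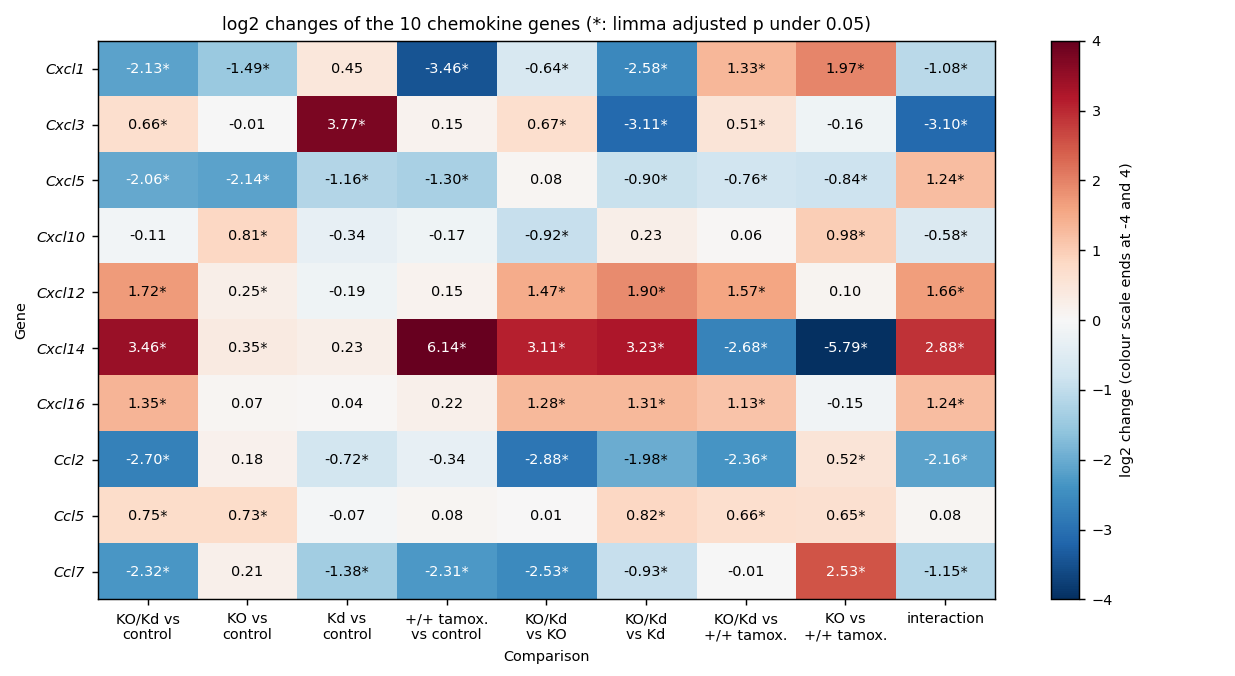
Log2 changes of the 10 chemokine genes (a line per gene) in 9 comparisons (columns). Colours run from blue (lower) to red (higher), with the scale ending at -4 and 4. An asterisk marks an adjusted p under 0.05 by limma. It is not used as a test for Cxcl3 in comparisons with the Kd arrays, the interaction included. The same holds for Cxcl5 in comparisons with the KO arrays, the interaction included, and for Ccl5 between groups with and without the deletion. Against control, asterisks of Cxcl3 and Cxcl5 give no separate support. Cxcl12 and Cxcl16 are red in all 4 KO/Kd columns, Ccl2 is blue in all 4, and Cxcl1 and Cxcl14 change colour when +/+ tamoxifen cells replace the control.

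The effect of the deletion differed between the micro-RNA backgrounds for 9 of 10 genes by limma's test of the interaction, beside 43.0% of all genes (25.8% higher, 17.2% lower). The interaction is the log2 change of KO/Kd against Kd minus that of KO against control, in which tamoxifen cancels where it acts additively on the log2 scale. Ccl2 was lower with the deletion in knockdown cells (-1.98) and not in scrambled cells (0.18), a difference of -2.16 ± 0.19 (adjusted p = 1.63e-07), and Ccl7 had -0.93 in knockdown cells and 0.21 in scrambled cells (-1.15 ± 0.25, adjusted p = 0.0015). Cxcl3 had -3.11 in knockdown cells and -0.01 in scrambled cells (-3.10 ± 0.14), given as a description because it contains the Kd level. Cxcl1 fell in both backgrounds, with -2.58 in knockdown cells and -1.49 in scrambled cells (-1.08 ± 0.32, adjusted p = 0.0126). For Cxcl5, lower in both, the step was smaller in knockdown cells (-0.90) than in scrambled cells (-2.14), a difference of 1.24 ± 0.22, likewise a description because it contains the KO level.

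Among the other CXC genes, Cxcl12 rose by 1.90 in knockdown cells and had 0.25 in scrambled cells (difference 1.66 ± 0.09, adjusted p = 4.11e-10), Cxcl14 had 3.23 in knockdown cells and 0.35 in scrambled cells (2.88 ± 0.15, adjusted p = 4.11e-10), and Cxcl16 had 1.31 in knockdown cells and 0.07 in scrambled cells (1.24 ± 0.18, adjusted p = 2.8e-05). Cxcl10 was the reverse, with 0.23 in knockdown cells and 0.81 in scrambled cells (-0.58 ± 0.17, adjusted p = 0.0122). Ccl5 had 0.82 in knockdown cells and 0.73 in scrambled cells and did not pass (0.08 ± 0.20, adjusted p = 0.78). All 9 differences, the described ones of Cxcl3 and Cxcl5 among them, stayed past the threshold with the same sign in every alternative listed under the processing (22 for Cxcl16 and 23 for the others). Among the other probe sets, the dim 1441855_x_at of Cxcl1 did not pass, with -0.43 (adjusted p = 0.183).

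**Figure D4:**
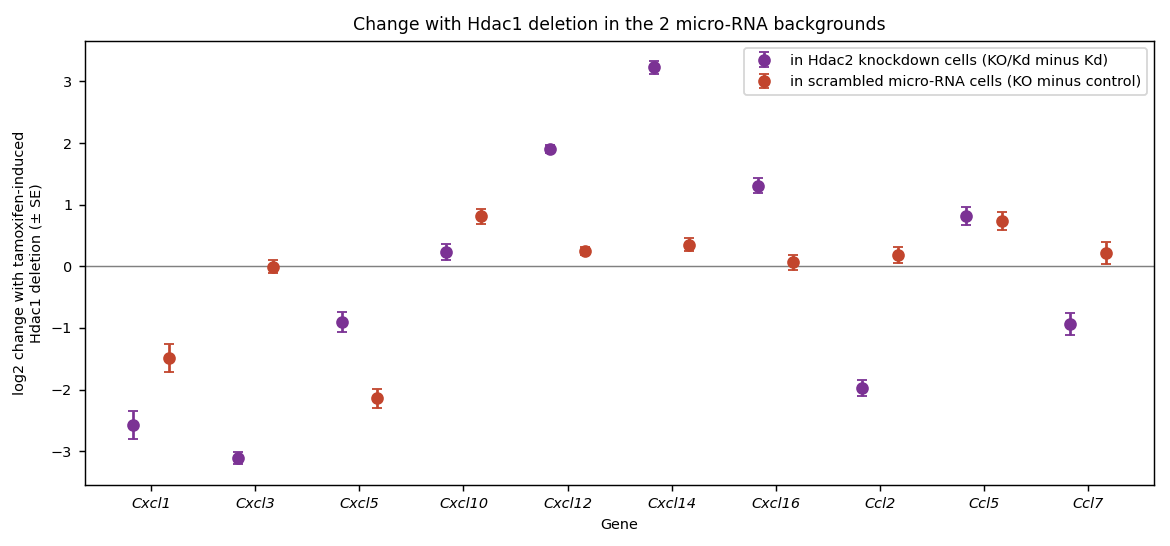
Log2 change (± SE) of the 10 chemokine genes with the tamoxifen-induced deletion of Hdac1, in Hdac2 knockdown cells (purple, KO/Kd minus Kd) and in scrambled micro-RNA cells (red, KO minus control). Cxcl12, Cxcl14 and Cxcl16 have raised purple points (1.90, 3.23 and 1.31), Ccl2 and Cxcl3 lowered ones (-1.98 and -3.11), and the 2 points of Ccl5 nearly coincide (0.82 and 0.73).

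The order of the 5 levels differed between the genes. Cxcl1 ran from Kd and control, which did not differ by limma's test, down through KO and KO/Kd to +/+ tamoxifen. Ccl2 ran from KO, control and +/+ tamoxifen to Kd and then KO/Kd. No adjacent pair of the first 3 differed, though KO was above +/+ tamoxifen (0.52, past the threshold by limma). Ccl7 ran from KO and control to Kd and then to +/+ tamoxifen and KO/Kd, which did not differ. Cxcl10 had KO on top of 4 groups whose neighbours did not differ, and for Cxcl16 the same held with KO/Kd on top. Cxcl12 also had KO/Kd on top, and on its brighter probe set no adjacent pair below differed. There KO still passed against control (0.25, adjusted p = 0.007 by limma). On 1417574_at the order below KO/Kd was +/+ tamoxifen (6765), Kd (5329), control (5267) and KO (4178). Ccl5 fell into 2 sets, KO/Kd with KO above +/+ tamoxifen, control and Kd. Log2 ranges of the group means after Cxcl14 were 3.91 for Cxcl1, 3.78 for Cxcl3, 2.88 for Ccl2, 2.53 for Ccl7, 2.14 for Cxcl5, 1.90 for Cxcl12, 1.35 for Cxcl16, 1.15 for Cxcl10 and 0.82 for Ccl5.

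Genes most like the 3 widest-ranging members were ranked by the root mean square difference of their 4 log2 changes against control. Nearest to Cxcl14 was Tfpi, the tissue factor pathway inhibitor, at 1.45, with log2 changes of 3.59 in KO/Kd, 0.13 in KO, 2.76 in Kd and 4.74 in +/+ tamoxifen cells. Lipo3 (1.66), the Wnt antagonist gene Sfrp1 (1.72), the prostacyclin synthase gene Ptgis (1.77) and the co-receptor gene Gfra1 (1.79) followed. Nearest to Cxcl1 was Nrp2, which encodes a co-receptor of semaphorins and vascular growth factors, at 0.88, followed by Igfbp6, Jade2, Vit and Omd at 0.95 to 1.08. Nearest to Cxcl3 was Lmcd1 at 0.86, with 2.40 in Kd cells and -0.28 in KO/Kd cells, followed by Fndc3c1, Irx1, Socs2 and Il1rn at 1.12 to 1.27. None of these 15 genes was a chemokine, and even the nearest to Cxcl14 was farther from it than the listed genes were from Cxcl1 or Cxcl3.

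The remaining chemokine ligands were tested through a list of 27, of which 16 passed the filter, and against control 6 rose and 0 fell in KO/Kd cells, 3 rose and 0 fell in KO cells, 2 rose and 0 fell in Kd cells, and 1 rose and 2 fell in +/+ tamoxifen cells. The shares of all genes called in these comparisons were 65.5% in KO/Kd, 24.2% in KO, 10.6% in Kd and 28.5% in +/+ tamoxifen cells, so that the called share of these ligands was below that of all genes in KO/Kd cells. Their median log2 change in KO/Kd cells was 0.13, beside 0.16 over all genes. The rises counted in Kd cells include Cxcl15, which passed the filter only through the Kd arrays and so gives no support. Ccl27a averaged 251 ± 54.4 in KO/Kd cells and 71.4 ± 19.8 in control cells (1.62, adjusted p = 2.12e-07), each SD with n = 3. Ccl25 averaged 308 ± 17.1 in KO/Kd cells and 130 ± 15.5 in control cells (1.16, past the threshold by limma). Ccl17 averaged 68.6 ± 21.8 in KO/Kd cells and 24.6 ± 0.32 in control cells (1.03, also past it). Ccl9 had opposite signs in KO cells (1.05, adjusted p = 0.00028) and +/+ tamoxifen cells (-1.06, adjusted p = 0.000183). It did not pass limma's test in Kd cells (0.08, adjusted p = 0.841).

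Of 23 chemokine receptor genes 10 were tested, and in KO/Kd cells 5 rose and 2 fell against control, in KO cells 1 rose and 0 fell, in Kd cells 2 rose and 0 fell, and in +/+ tamoxifen cells 2 rose and 2 fell. Of all genes, 65.5% were called in KO/Kd, 24.2% in KO, 10.6% in Kd and 28.5% in +/+ tamoxifen cells, and the KO/Kd count is close to that share. The rises counted in KO/Kd cells include Ackr1, Ccr7 and Ccrl2, which passed the filter only through the KO/Kd arrays. They also include Cxcr4, described below, so this count supports nothing further. Cxcr4 is also among the rises counted in +/+ tamoxifen cells, where it gives no support either. The median in KO/Kd cells was 0.25, beside 0.16 over all genes. Ackr3, the scavenging receptor of Cxcl12, averaged 10850 ± 489 in KO/Kd cells, 3250 ± 126 in KO cells, 2949 ± 213 in Kd cells, 6823 ± 216 in +/+ tamoxifen cells and 2264 ± 104 in control cells (SD, n = 3 each). Ackr3 rose against control in all 4 groups, most in KO/Kd cells (2.25 ± 0.07, adjusted p = 1.41e-13). Cxcr4, the signalling receptor of Cxcl12, was dim, at 26.4 ± 4.84 in KO/Kd cells and 15.4 ± 1.94 in control cells (0.43). It passed the filter only through the KO/Kd and +/+ tamoxifen arrays, so its difference from control is a description with no test. Cxcr6, the receptor of Cxcl16, fell in KO/Kd cells (-1.15 ± 0.11, adjusted p = 9.41e-08) and rose in Kd cells (0.92 ± 0.11, adjusted p = 2.7e-05). Ackr4, a scavenger of CC chemokines, fell in KO/Kd cells (-0.91, adjusted p = 0.000323).

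Of the 36 listed genes of the NF-kappaB pathway and its other targets 31 were tested, and 14 rose and 6 fell against control in KO/Kd cells, 10 rose and 3 fell in KO cells, 3 rose and 2 fell in Kd cells, and 11 rose and 4 fell in +/+ tamoxifen cells. Of all genes, 65.5% were called in KO/Kd, 24.2% in KO, 10.6% in Kd and 28.5% in +/+ tamoxifen cells. The called share in KO/Kd cells was near that of all genes, and the median there was 0.18, beside 0.16 over all genes. The rises counted in KO/Kd cells include Icam1, described next. Icam1, a leukocyte adhesion molecule, averaged 436 ± 176 in KO/Kd cells and 16.6 ± 3.54 in control cells (SD, n = 3 each), a log2 difference of 3.71. It was above the 40th percentile on 3 KO/Kd arrays, 1 +/+ tamoxifen array and 1 control array and so passed the filter only through KO/Kd cells, which makes the difference a description with no test. Tnfaip3, an inhibitor of the pathway, rose in KO/Kd cells (1.36 ± 0.14, adjusted p = 1.96e-07). Il1r1, the interleukin-1 receptor, fell in KO/Kd cells (-1.85 ± 0.09, adjusted p = 1.74e-11), in KO cells (-0.56, adjusted p = 0.0002) and in Kd cells (-0.64, adjusted p = 0.000109). Tlr2, a receptor of bacterial lipoproteins, fell in +/+ tamoxifen cells (-2.08 ± 0.10, adjusted p = 5.65e-10).

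Of 26 interferon signalling genes 20 were tested, and 11 rose and 4 fell against control in KO/Kd cells, 5 rose and 0 fell in KO cells, 3 rose and 2 fell in Kd cells, and 6 rose and 1 fell in +/+ tamoxifen cells. These counts stand beside 65.5% of all genes called in KO/Kd, 24.2% in KO, 10.6% in Kd and 28.5% in +/+ tamoxifen cells, and the median in KO/Kd cells was 0.27, beside 0.16. The interferon-induced Bst2 (2.77, adjusted p = 9.89e-10) and Ifi35 (1.74, adjusted p = 2.79e-12) rose in KO/Kd cells. Usp18 averaged 118 ± 32.8 in KO/Kd cells and 14.5 ± 1.72 in control cells (SD, n = 3 each) and was above the 40th percentile on the 3 KO/Kd arrays alone, so its log2 difference of 2.10 is a description. Ifit1, another interferon-induced gene, averaged 45.3 ± 18.9 in KO/Kd cells, 79.0 ± 32.3 in KO cells and 13.97 ± 1.26 in control cells (SD, n = 3 each). Ifit1 passed the filter only through the KO/Kd and KO arrays, and its log2 difference of 1.61 in KO cells against control is likewise a description. The counts above include Usp18 and Ifit1 in KO/Kd cells and Ifit1 in KO cells, where these genes give no support.

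Across the series, the targeted genes followed the labels: Hdac1 was between 106 and 203 on the arrays with the deletion and between 3498 and 4806 on the others, and Hdac2 between 908 and 1031 with the knockdown and between 6492 and 7702 without it. All 12 fibroblast markers were above the 40th percentile on all 15 arrays, as were the epithelial markers Krt19, Epcam and Cldn3. The levels of the fibroblast markers did change. In KO/Kd cells against control 7 of the 12 rose and 3 fell, beside 65.5% of all genes called. S100a4 fell most, from 20640 ± 267 to 948 ± 180 (SD, n = 3 each; -4.44, adjusted p = 5.39e-15 by limma), and Col3a1 rose by 0.94. Thy1 averaged 128 in Kd, 1242 in +/+ tamoxifen and 280 in control cells. Of 8 endothelial markers, Kdr was above the 40th percentile on 6 arrays, Esam on 5 and Tek on 2, and the other 5, Pecam1 and Cdh5 among them, on 0. The log2 differences of KO/Kd cells from control, 1.53 for Kdr and 0.27 for Esam, are given as values because few arrays carried either gene past the filter. The summed level of 8 endothelial markers was 175 to 213 in KO/Kd cells and 111 to 124 in control cells. Kdr averaged 77.2 in KO/Kd cells and 15.7 in control cells. The sum of 8 epithelial markers was 354 to 408 in KO/Kd cells, 745 to 927 in KO cells and 442 to 556 in control cells. In Kd cells it was 607 to 736, and in +/+ tamoxifen cells 638 to 809. Most of this sum was Krt19, which averaged 223 in KO/Kd, 675 in KO, 523 in Kd, 557 in +/+ tamoxifen and 340.5 in control cells. The part of the marker genes in the chemokine changes was not tested. Array medians were 29.1 to 30.7 in KO/Kd cells and 24.1 to 25.1 in control cells. The median log2 change of all genes in KO/Kd cells against control, 0.16, was -0.02 after quantile normalization and -0.11 with each array centred on its median. Genes called in KO/Kd against control were 6181 higher and 2585 lower, and 4322 higher and 4466 lower after quantile normalization. For KO against control they were 2617 higher and 623 lower, and 1873 higher and 1933 lower after quantile normalization. For Kd against control they were 1010 higher and 407 lower, and 1113 higher and 976 lower after quantile normalization. For +/+ tamoxifen cells against control they were 2883 higher and 928 lower, and 1945 higher and 2011 lower after quantile normalization. No called change of the 10 chemokine genes turned its sign under either scaling.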

How the data were processed

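RNA of 15 samples was measured on Affymetrix Mouse 430v2 arrays. The authors deposited linear intensity values for 45037 probe sets; how these were summarised, background-corrected and scaled is not given in the sources used. Array medians were 24.1 to 30.7, and 0 pairs of arrays were identical. Probe sets to which GEO's platform annotation gave 1 symbol (34945) were used; those with several (932) or none (9160) were left out. From the deposited values log2(intensity + 16) was computed. Probe sets above the 40th percentile of their array on at least 3 arrays were kept, and the brightest represented its gene. All 15 arrays entered 1 model in limma 3.58.1 (R 4.3.3; lmFit, contrasts.fit, eBayes) with a coefficient per group, for 9 comparisons, with Benjamini-Hochberg adjustment over 13382 genes and a threshold of 0.05. The procedure was checked on simulated data. With 3 arrays per group, the median standard error was 0.0868 for a log2 change and 0.123 for the interaction. The 10 genes, the 8 lists and the tests were chosen with earlier results of these data known. Named genes are the 10 members, Hdac1 and Hdac2, up to 4 members per pathway list with the largest called change against control, and the 5 nearest patterns of each of the 3 widest-ranging members. A few further list genes are named only for a limit of the filter. Marker genes are given as sums and by the arrays above the 40th percentile. For Csf1r, Cd68, Kit, Kdr, Esam, S100a4 and Col3a1 log2 differences are given too, and for Kdr, Krt19, S100a4 and Thy1 group means. Alternatives were eBayes with trend and robust, a fit to the compared groups only, blocking on replicate number, omitting the filter or setting it at the 60th percentile, averaging a gene's probe sets, leaving out _x_at and _s_at probe sets, quantile normalization, median centring of arrays, array weights (gene-by-gene method), a pseudocount of 1, and leaving out each array. The other probe sets of a member were tried after seeing the data.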

Additional observations from a re-analysis of the deposited data

Results flagged for a closer look

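For 9 of the 10 chemokine genes the effect of the Hdac1 deletion in Hdac2 knockdown cells differed from its effect in scrambled micro-RNA cells by limma's interaction test, with 43.0% of all genes passing the same test. Tamoxifen came with the deletion in both backgrounds and cancels only where it acts additively on the log2 scale. The differences (log2, knockdown background minus scrambled background) were -3.10 for Cxcl3, -2.16 for Ccl2, -1.15 for Ccl7, -1.08 for Cxcl1 and -0.58 for Cxcl10. They were 2.88 for Cxcl14, 1.66 for Cxcl12, 1.24 for Cxcl16 and 1.24 for Cxcl5. The value of Cxcl10 was -0.88 with array weights, and the value of Cxcl16 was 0.63 without _x_at and _s_at probe sets. The array weights rest mostly on 1 KO array. KO replicate 2, the highest KO array for Cxcl10 (107), had a weight of 8.81, beside 0.294 and 0.292 for KO replicates 1 and 3. For Cxcl3 and Cxcl5 the difference contains a change that had stood out in earlier results of these data, so the test gives no support there.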

How the results depend on the processing

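Counts of called chemokine genes stayed within 1.5 times their main value in all comparisons and settings except Kd against control, where 7 genes passed with only the compared groups in the fit, in place of 4. Apart from sign changes of values that passed in neither setting, directions turned for Cxcl12 and Cxcl1: in KO against control Cxcl12 was -0.052 with the mean of its probe sets, -0.33 with 1417574_at and -0.073 with 1439084_at, in KO against +/+ tamoxifen cells Cxcl12 was -0.27 with the mean and -0.69 with 1417574_at, and in KO/Kd against KO Cxcl1 was 0.0078 with 1441855_x_at. The cause was not tested. With the other probe sets left aside, called changes of single genes kept their direction and call in 1115 cases, lost the call in 16 and turned in 1; changes that did not pass came to pass in 30. Weakened calls were those of Cxcl12 and Cxcl14 in KO against control and of Cxcl1 in KO/Kd against KO. The replicate block left the counts at 6 for KO, 4 for Kd and 9 for KO/Kd against control, 9 against Kd, 8 against KO, 9 for the interaction, 4 for +/+ tamoxifen cells, 7 for KO and 8 for KO/Kd against +/+ tamoxifen cells. Same-numbered arrays of different groups did not deviate together (r from -0.161 to 0.135 over 30 pairs), so the numbers were not taken to pair samples. The stricter filter left 8 of the 10 genes tested. Signal near background limits Ccl5, Cxcl10, Cxcl16 and the low groups of Cxcl3, Cxcl5 and Cxcl14, where the pseudocount weighs on the size of a change. The described Cxcl5 value in KO against control, -2.14, reached -2.51 over the alternatives.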
